A study of Homo sapiens with 15 samples.

Results

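The NRF2 antioxidant pathway was followed through 9 genes: the transcription factor gene NFE2L2, which encodes NRF2, its inhibitor gene KEAP1, and 7 target genes, HMOX1, NQO1, GCLM, GCLC, TXNRD1, SRXN1 and OSGIN1. They were a named list, chosen without a measured value in the rule, and each was read from its probeset with exactly 1 gene symbol and the highest mean over the 15 arrays. All 9 were found among 18417 genes, each with 1 probeset. RNA had been measured on Affymetrix whole-transcript arrays in 5 groups of 3 samples. Human umbilical vein endothelial cells (HUVEC) were untreated, kept for 6 h in EGM2 medium with exosomes of Jurkat T cells (JK exosomes), or kept for 6 h with exosomes of JinB8 cells (JINB8 exosomes). The other groups were RNA of the JK exosomes themselves, labelled CD47+, and RNA of the JINB8 exosomes, labelled CD47-. Exosomes are small vesicles that cells release. Jurkat is a T cell leukaemia line and JinB8 a mutant of it that lacks CD47, so the exosome kinds differ by cell line as well as by CD47. They were precipitated with a kit from medium of cells grown with human serum, and the labels name no mock preparation for the untreated cells. Whether the 3 samples of a group came from separate cultures is not given, so a p-value here reflects sample spread that may be technical.

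NRF2 is a basic leucine zipper factor that is made and destroyed continuously. KEAP1, an adaptor of the CUL3 ubiquitin ligase, holds NRF2 for degradation. When oxidants or electrophiles modify KEAP1 cysteines, NRF2 builds up, pairs with small MAF proteins and binds antioxidant response elements near its target genes. The targets make glutathione (GCLC and GCLM), recycle thioredoxin and peroxiredoxins (TXNRD1 and SRXN1), reduce quinones (NQO1) and break down haem (HMOX1). In endothelium the pathway is known for limiting oxidative and inflammatory injury. NRF2 activity is set largely at the protein level, which RNA arrays do not measure.

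The upstream DNA of the members was searched for the core of the antioxidant response element, TGACNNNGC, on both strands, because several of these genes are known NRF2 targets. RefSeq promoter windows (GRCh38.p14) of 300 bases, 250 before and 50 after a transcription start, were used for 8 of the 9 members, 11 windows in all. HMOX1 had no window. The core matched in 4 of the 11 windows, which belonged to KEAP1, GCLM and TXNRD1. Among all RefSeq windows supplied, 4687 of 35116 windows (13.3%) held a match. The 150 bases before the start are shown for those 4 windows, 5′ to 3′ on the gene's strand, with the matches in capitals. They lie at chr19:10502772-10502921 (minus strand, the second KEAP1 window), chr1:93909431-93909580 (minus strand, GCLM), and chr12:104215629-104215778 and chr12:104286882-104287031 (plus strand, both TXNRD1 windows).
KEAP1: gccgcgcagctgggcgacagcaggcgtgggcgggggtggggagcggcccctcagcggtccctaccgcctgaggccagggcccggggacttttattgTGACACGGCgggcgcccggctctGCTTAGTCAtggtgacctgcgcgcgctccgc
GCLM: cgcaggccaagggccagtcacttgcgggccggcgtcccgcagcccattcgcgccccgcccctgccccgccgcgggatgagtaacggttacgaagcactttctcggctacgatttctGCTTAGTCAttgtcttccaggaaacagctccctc
TXNRD1, first window: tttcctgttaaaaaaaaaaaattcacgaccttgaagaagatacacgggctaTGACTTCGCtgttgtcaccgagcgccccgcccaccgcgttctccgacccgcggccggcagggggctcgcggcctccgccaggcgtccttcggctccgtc
TXNRD1, second window: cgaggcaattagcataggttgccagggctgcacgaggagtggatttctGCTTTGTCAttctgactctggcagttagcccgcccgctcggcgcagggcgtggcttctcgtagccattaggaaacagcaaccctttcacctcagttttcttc
KEAP1 and GCLM carried the same 9 letters on the reverse strand, TGACTAAGC, at -31 to -23 and -34 to -26 from their starts. KEAP1 held a further TGACACGGC on the forward strand at -54 to -46. TXNRD1 had TGACTTCGC at -99 to -91 of its first start and TGACAAAGC on the reverse strand at -102 to -94 of its second. A further TXNRD1 match, TGACGGAGC from -8 to 1, spans the first start and lies partly outside the stretch shown. The windows of NFE2L2, NQO1, GCLC, SRXN1 and OSGIN1 held no match, which says only that these letters are not in those windows. A match is a description of the sequence, not evidence of a bound site.

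The deposited array levels differed between groups. The median over all genes lay between 7.41 and 7.44 on the log2 scale in untreated HUVEC, between 5.57 and 5.67 in treated HUVEC, and between 5.17 and 5.22 in exosome RNA. Exosome RNA arrays also spread less over genes, with an SD of 1.03 to 1.07 against 1.83 to 2.01 in HUVEC. Arrays within a group correlated at 0.987 to 0.997 across genes, which are not independent replicates. All 15 measured endothelial markers lay above the array median in untreated HUVEC and in both treated groups, and 7 of 15 did in exosome RNA. Of 14 T cell markers, 8 lay above the array median in either exosome RNA and 1, CD7, in HUVEC. CD47 RNA did not differ between the exosome kinds past the threshold (4.72, 4.69 and 4.72 in JK, 4.58, 4.67 and 4.94 in JINB8, limma adjusted p = 0.988). No detection calls accompany the values, so a low signal cannot be told from background. Fewer cells of a type and less RNA per cell cannot be told apart in such bulk RNA.

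As deposited, all 9 genes read lower in treated than in untreated HUVEC. The median of all genes was lower as well, at a log2 change of -1.68 (JK) and -1.71 (JINB8). The array level of the untreated samples and the treatment cannot be told apart. The comparisons with untreated cells were therefore read relative to this shift, from values quantile-normalized over the 9 HUVEC arrays. The shift differed with signal. Over 5 equal classes of genes by signal, the median deposited change with JK exosomes was -1.4 in the brightest class, which holds NFE2L2, HMOX1, NQO1 and TXNRD1, and -1.76 in the middle class, which holds GCLM and OSGIN1.

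**Figure D1:**
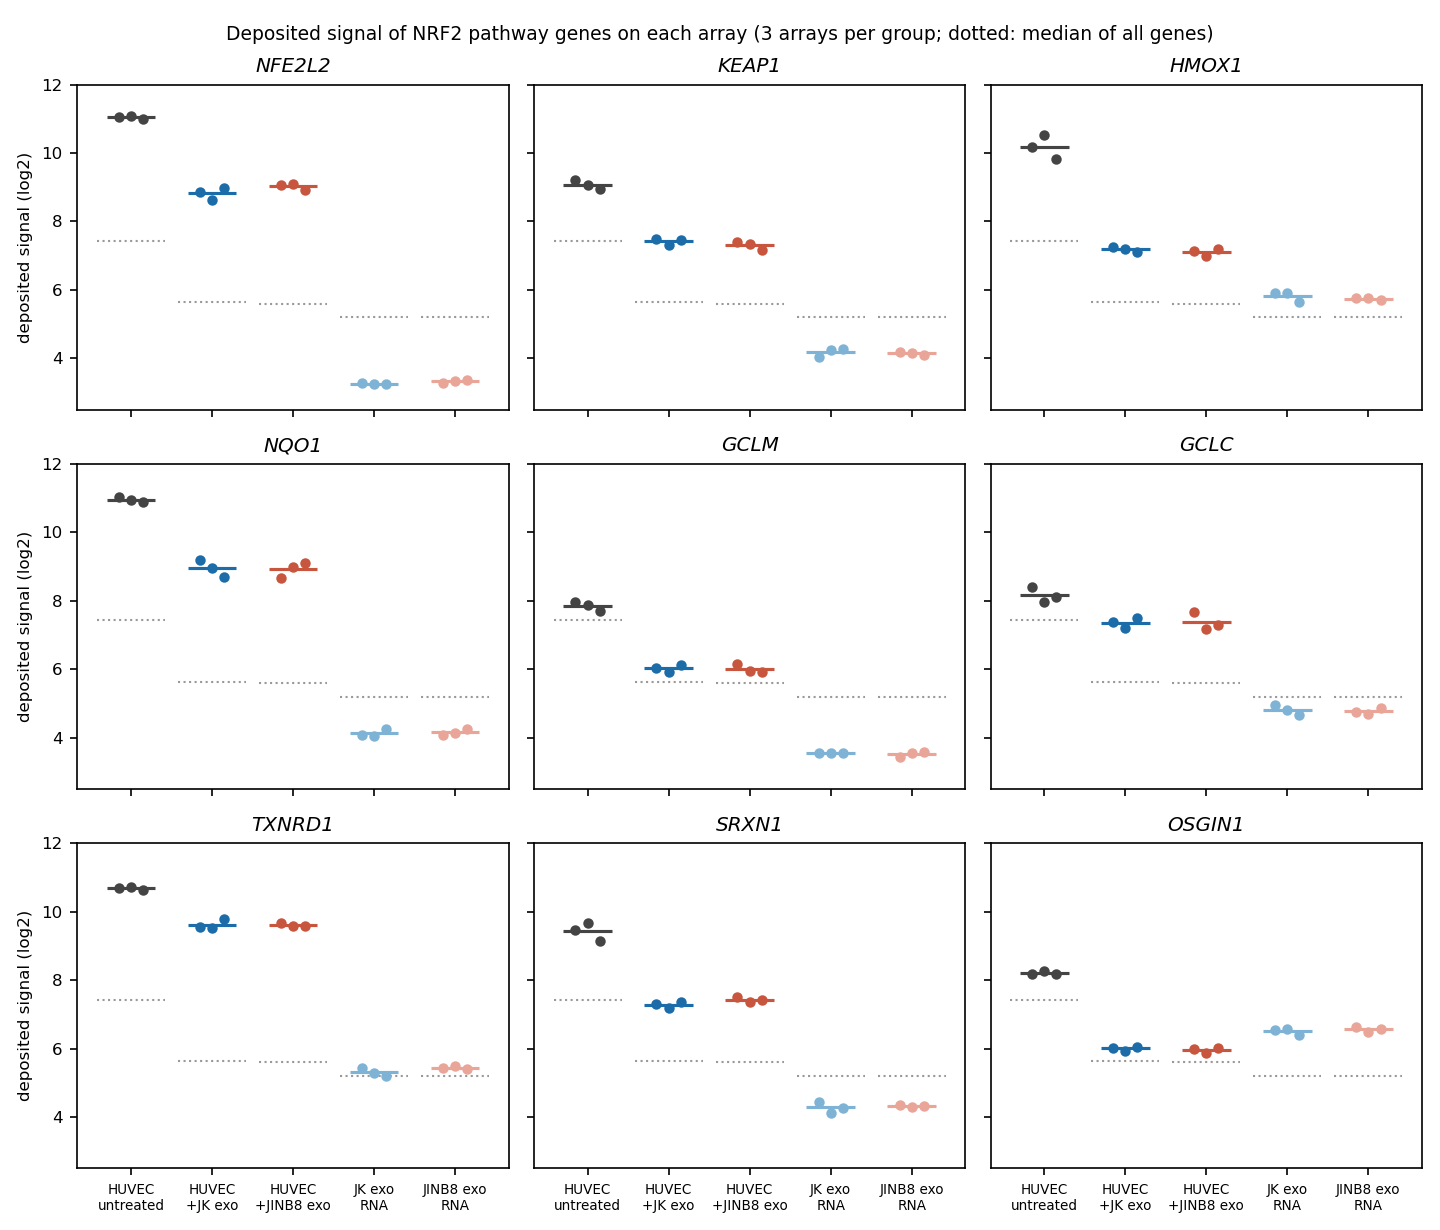
Deposited log2 signal (vertical axis) of the 9 genes on each of 15 arrays, in 5 groups of 3 (horizontal axis). Points are arrays, solid bars group means and dotted lines the median of all genes. NFE2L2 lies near 11.05 in untreated HUVEC, 8.82 and 9.02 in treated HUVEC and 3.25 and 3.33 in exosome RNA, while OSGIN1 reads higher in exosome RNA (6.5 and 6.56) than in treated HUVEC (6.01 and 5.96).

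Relative to the array-wide shift, HMOX1 fell the most of the 9 genes after exosomes of either kind, by close to 3-fold. NFE2L2, NQO1, SRXN1 and OSGIN1 fell by 1.37- to 1.78-fold. GCLC and TXNRD1 rose relative to the shift but read lower as deposited. KEAP1 and GCLM did not pass the test. So 5 members fell and 2 rose in each comparison, where 48.6% of all genes passed with JK and 49.3% with JINB8 exosomes. By direction, 22.4% of all genes fell and 26.2% rose with JK exosomes, and 23.3% fell and 26% rose with JINB8 exosomes (limma, Benjamini-Hochberg adjusted p under 0.05). Calls over all genes were 4829 higher and 4121 lower with JK exosomes, or 6462 and 3587 with median centring, and 4791 and 4283 with JINB8 exosomes, or 7025 and 3450. As deposited they were 30 and 18289 with JK and 34 and 18252 with JINB8 exosomes. Median centring put the median gene itself at 0.10 and 0.13. Under it 4 members were lower and 2 higher with JK exosomes, and 2 lower and 2 higher with JINB8 exosomes. Cyclic loess gave 5 members lower and 2 higher with JK, and 6 lower and 1 higher with JINB8 exosomes. The members' median log2 change was -0.54 with JK and -0.46 with JINB8 exosomes, beside 0.02 over all genes in either. Endothelial markers, summed, read 14.96 to 15.16 in untreated and 13.95 to 14.08 in treated HUVEC, as deposited, and relative to the shift 4 of 15 rose and 3 fell with JK exosomes and 5 rose and 3 fell with JINB8 exosomes. T cell markers read 10.11 to 10.29 untreated and 8.38 to 8.51 treated. Of these 14, 1 rose and 3 fell with JK exosomes, and 0 rose and 3 fell with JINB8 exosomes. Their part in the members' changes was not tested. Both comparisons use the same untreated arrays, so their values are set side by side and are not independent.

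NFE2L2, the gene of NRF2 itself, read 11.06, 11.09 and 10.98 in untreated HUVEC as deposited, 8.85, 8.62 and 8.98 with JK exosomes, and 9.07, 9.08 and 8.91 with JINB8 exosomes. All treated arrays lay below all untreated arrays. As deposited this has little meaning for a single gene, since 18289 (JK) and 18252 (JINB8) of 18417 genes were called lower. They also did so on the quantile scale, as did the arrays of 25.9% of all genes with JK and 27.1% with JINB8 exosomes. After quantile normalization its means were 10.15 ± 0.09 (SD, n = 3), 9.31 ± 0.14 and 9.48 ± 0.08. The log2 fold change was -0.84 ± 0.09 (SE) with JK exosomes, a 1.78-fold fall (limma adjusted p = 3.27e-05). With JINB8 exosomes it was -0.66 ± 0.09 (1.58-fold, adjusted p = 0.000157). With median centring the values were -0.45 with JK exosomes (adjusted p = 0.00456) and -0.19 with JINB8 exosomes, which did not pass (adjusted p = 0.163).

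KEAP1, which targets NRF2 for degradation, read 9.20, 9.05 and 8.96 in untreated cells as deposited, 7.49, 7.30 and 7.47 with JK exosomes, and 7.41, 7.35 and 7.17 with JINB8 exosomes. These differences were close to the array-wide shift. On the quantile scale its log2 fold changes of -0.09 (95% interval -0.28 to 0.10, limma adjusted p = 0.401) and -0.19 (-0.38 to 0.00, adjusted p = 0.084) did not pass, though each treated array lay below each untreated array. Median centring turned their sign, to 0.13 and 0.08, and cyclic loess brought the JINB8 value past the threshold (-0.23, adjusted p = 0.0483). Groups without overlap were found in 6 members with the treated cells lower, where the share of all genes was 25.9% with JK and 27.1% with JINB8 exosomes. They were found in 2 members with the treated cells higher, where it was 30.2% and 30.5%.

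The log2 difference of NFE2L2 minus KEAP1 within an array is free of any shift that is constant over genes, but not of one that varies with signal. NFE2L2 is in the brightest class, whose median deposited change was -1.4 with JK and -1.37 with JINB8 exosomes. KEAP1 is in the class below, at -1.6 and -1.62. This pair, and the one of GCLC and GCLM, were chosen after their values were seen, and only changes in the difference have a meaning, since the probesets are not on a common scale. NFE2L2 minus KEAP1 was 1.86, 2.05 and 2.02 in untreated HUVEC, 1.36, 1.33 and 1.5 with JK exosomes and 1.65, 1.72 and 1.74 with JINB8 exosomes. The treated minus untreated mean was -0.58 with JK and -0.27 with JINB8 exosomes, and no treated array reached the lowest untreated one. An exact two-sided permutation test gave p = 0.1 for each, the smallest that 3 against 3 samples allow.

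HMOX1, which encodes the inducible haem oxygenase that turns haem into biliverdin, carbon monoxide and iron, read 10.17, 10.53 and 9.83 in untreated HUVEC as deposited. It read 7.24, 7.20 and 7.10 with JK exosomes and 7.13, 6.99 and 7.19 with JINB8 exosomes. The untreated arrays spread more widely than the treated ones, and still lay more than 2 log2 units above them as deposited. That gap holds the array-wide shift, -1.68 with JK and -1.71 with JINB8 exosomes. On the quantile scale the lowest untreated array read 8.92 and the highest treated one 7.75. Quantile-normalized means were 9.20 ± 0.35 (SD, n = 3), 7.71 ± 0.07 and 7.65 ± 0.08. The log2 fold changes were -1.49 ± 0.14 (SE) with JK exosomes (2.81-fold, limma adjusted p = 1.04e-05) and -1.55 ± 0.14 with JINB8 exosomes (2.93-fold, adjusted p = 7.43e-06). Only 241 and 225 of 18417 genes, HMOX1 included, had a change as low or lower. Over all 15 alternatives the value stayed at -1.16 or lower with JK and at -1.21 or lower with JINB8 exosomes, and passed each time.

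NQO1, a quinone reductase, read 11.02, 10.95 and 10.88 in untreated cells, 9.19, 8.97 and 8.70 with JK exosomes and 8.67, 9 and 9.10 with JINB8 exosomes, as deposited. It fell on the quantile scale, at -0.60 ± 0.13 (limma adjusted p = 0.00281) and -0.65 ± 0.13 (adjusted p = 0.0016). Median centring ended both calls (-0.21 and -0.19, adjusted p = 0.179 and adjusted p = 0.23).

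OSGIN1, a stress-induced growth inhibitor gene, read 8.19, 8.28 and 8.18 in untreated cells, 6.03, 5.94 and 6.05 with JK exosomes and 5.98, 5.87 and 6.03 with JINB8 exosomes, as deposited. Its replicates were tight and its log2 fold change on the quantile scale was -0.54 ± 0.08 with either exosome kind (limma adjusted p = 0.000276 with JK, adjusted p = 0.000273 with JINB8). The fall passed under each alternative run in both comparisons.

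**Figure D2:**
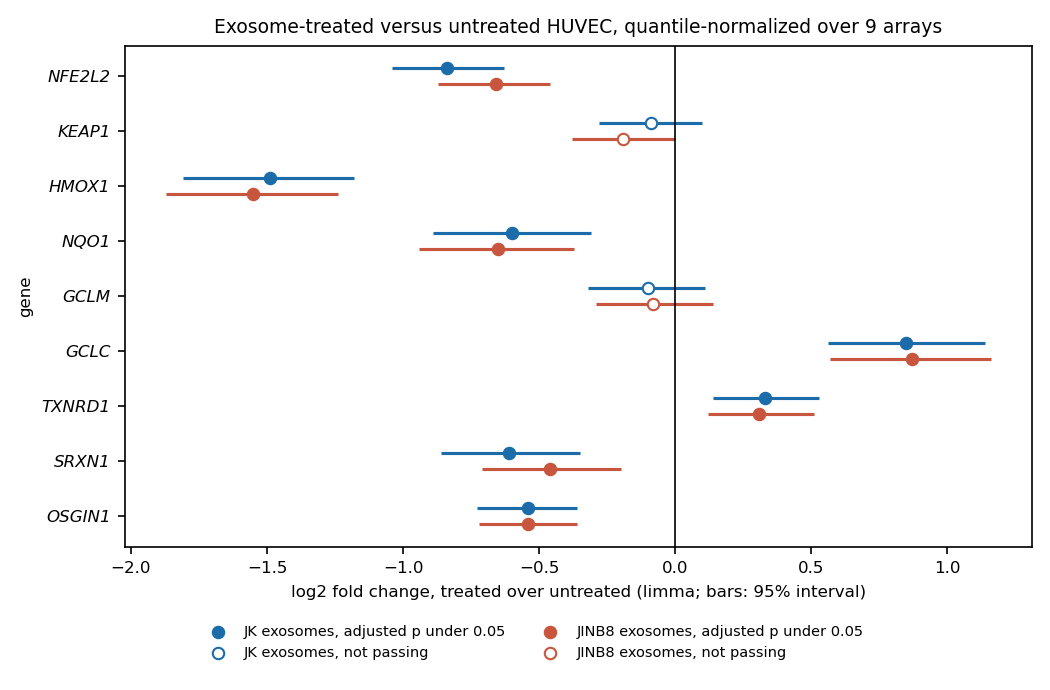
Log2 fold change (horizontal axis) of the 9 genes in HUVEC with JK or JINB8 exosomes over untreated HUVEC, after quantile normalization of 9 arrays. Points are limma estimates, bars 95% intervals, filled points passed an adjusted p under 0.05. HMOX1 lies lowest, at -1.49 and -1.55, GCLC highest, at 0.85 and 0.87, and KEAP1 and GCLM do not pass.

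Glutamate-cysteine ligase, the rate-limiting enzyme of glutathione synthesis, has a catalytic subunit (GCLC) and a modifier subunit (GCLM). Of these, GCLC passed the test and GCLM did not. GCLC read 8.40, 7.95 and 8.11 in untreated cells, 7.38, 7.20 and 7.50 with JK exosomes and 7.66, 7.17 and 7.28 with JINB8 exosomes, as deposited. It was thus lower by less than the array-wide shift, and rose on the quantile scale by 0.85 ± 0.13 (1.8-fold, limma adjusted p = 0.000342) and 0.87 ± 0.13 (1.82-fold, adjusted p = 0.000277), against -0.80 and -0.78 as deposited. Only 691 and 720 genes had a change as high or higher. GCLM read 7.96, 7.88 and 7.70 untreated, 6.03, 5.93 and 6.13 with JK exosomes and 6.16, 5.95 and 5.91 with JINB8 exosomes, a fall close to the shift. On the quantile scale its groups overlapped and it did not pass (-0.10, 95% interval -0.32 to 0.11, and -0.08, -0.29 to 0.14).

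The within-array log2 difference of GCLC minus GCLM was 0.44, 0.07 and 0.41 in untreated HUVEC. It was 1.35, 1.27 and 1.37 with JK exosomes and 1.49, 1.22 and 1.37 with JINB8 exosomes. Every treated array lay above every untreated array, and the treated minus untreated mean was 1.02 (2.03-fold) and 1.06 (2.08-fold). The exact two-sided permutation p was 0.1, again the smallest that 3 against 3 samples allow. Such a difference is free of a constant array shift, but not of one that varies with signal.

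TXNRD1 encodes cytosolic thioredoxin reductase, which uses NADPH to reduce thioredoxin. Its deposited values were 10.70, 10.71 and 10.64 in untreated cells, 9.54, 9.52 and 9.78 with JK exosomes and 9.67, 9.59 and 9.59 with JINB8 exosomes. On the quantile scale it rose by 0.33 ± 0.09 (limma adjusted p = 0.00875) and 0.31 ± 0.09 (adjusted p = 0.0119), against -1.07 as deposited in both. Cyclic loess ended the JINB8 call (0.22, adjusted p = 0.0522). Median centring gave larger values, 0.71 and 0.77.

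SRXN1 encodes sulfiredoxin, which repairs overoxidised peroxiredoxins. It read 9.47, 9.66 and 9.14 in untreated cells, 7.31, 7.18 and 7.37 with JK exosomes and 7.52, 7.36 and 7.42 with JINB8 exosomes, as deposited. It fell, at -0.61 ± 0.12 (limma adjusted p = 0.00136) and -0.46 ± 0.12 (adjusted p = 0.00734) on the quantile scale. Median centring brought the JK value to -0.36 (adjusted p = 0.028) and ended the JINB8 call (-0.16, adjusted p = 0.306).

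**Figure D3:**
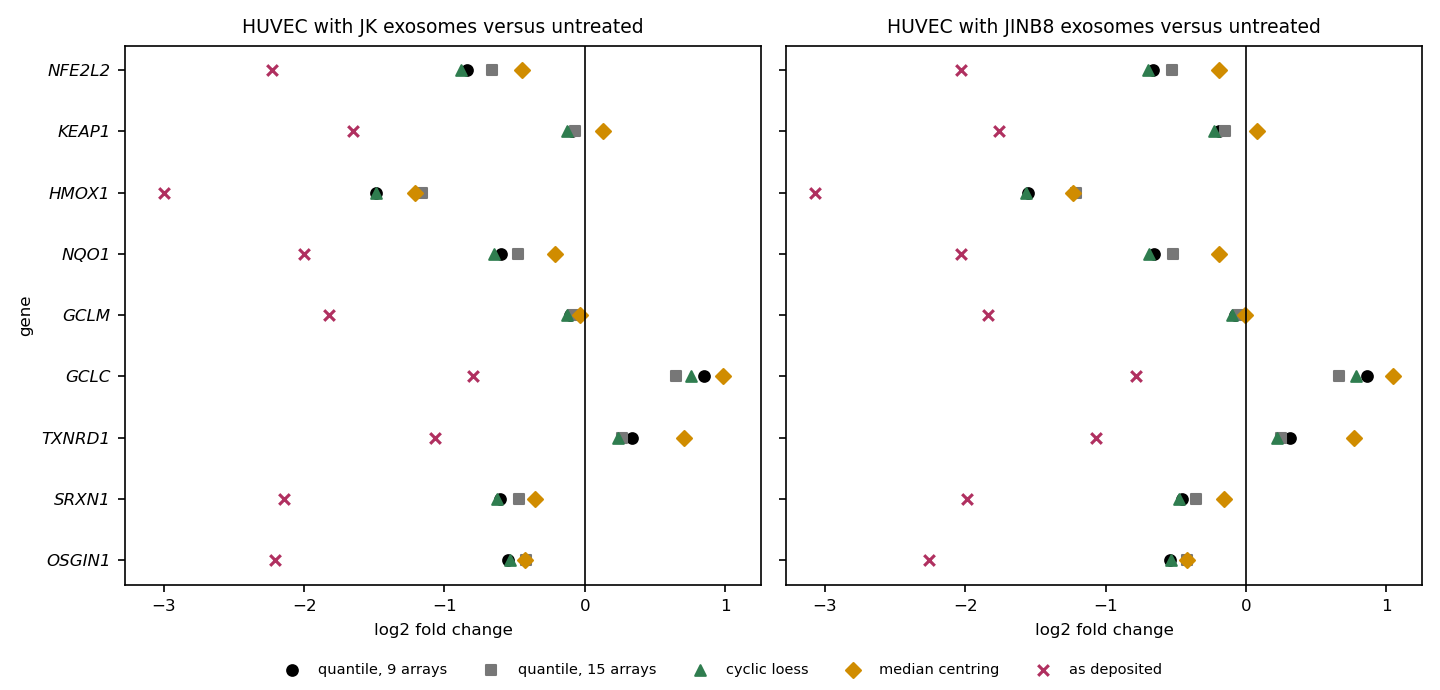
Log2 fold change (horizontal axis) of the 9 genes in treated over untreated HUVEC under 5 scalings, with JK exosomes at the left and JINB8 exosomes at the right. As deposited all 9 genes are below 0. HMOX1 stays at -1.16 or lower under each scaling shown, and GCLC is at 0.65 or higher under each scaling other than the deposited one.

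The wider pathway was read from lists of 20 partners and regulators of NRF2, 34 other targets, 26 other antioxidant enzymes, 12 NADPH oxidase subunits and 18 genes of haem and iron handling, counting the genes measured. Of the partners and regulators 4 rose and 7 fell with JK exosomes (20% and 35%, beside 26.2% and 22.4% of all genes), and 5 rose and 6 fell with JINB8 exosomes (25% and 30%, beside 26% and 23.3%). Values are log2 fold changes with SE, with JK and then JINB8 exosomes. A gene given with a single exosome kind was among its list's 2 highest or 2 lowest passing genes in that comparison only. It may have passed with the other kind as well, and no gene of these lists passed between the treated groups, as given below. BACH2, a repressor that competes at MAF-bound elements, fell, at -1.15 ± 0.12 and -1.09 ± 0.12, and the ubiquitin ligase gene TRIM21 at -1.11 ± 0.17 and -1.09 ± 0.17. As deposited, BACH2 read 4.69 and 4.7 and TRIM21 5.45 and 5.42 in treated HUVEC, below the array medians, where a low signal cannot be told from background. BTRC, an F-box protein of a KEAP1-independent NRF2 ligase, rose by 0.48 ± 0.10 and 0.57 ± 0.10. CAND1, a cullin exchange factor, rose by 0.42 ± 0.10 and 0.43 ± 0.10. Under median centring CAND1 was at 0.69 and 0.77, and BTRC at 0.86 with JINB8 exosomes. Each of these had a limma adjusted p of 0.00599 or less.

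Of the other NRF2 targets 9 rose and 12 fell with JK exosomes, 26.5% and 35.3% of the list beside 26.2% and 22.4% of all genes, and 10 rose and 11 fell with JINB8 exosomes, 29.4% and 32.4% beside 26% and 23.3%. SLC7A11, the cystine transporter that supplies glutathione synthesis, fell, at -1.21 ± 0.10 and -1.28 ± 0.10 (limma adjusted p = 2.82e-06 and adjusted p = 1.75e-06), and at -0.73 in both under median centring, which also passed. The microsomal glutathione transferase MGST1 fell, at -1.65 ± 0.09 and -1.60 ± 0.09. NQO2, a relative of NQO1, rose by 0.71 ± 0.09 with JK exosomes, and the epoxide hydrolase EPHX1 by 0.79 ± 0.16 with JINB8 exosomes. AKR1C1, an aldo-keto reductase with close paralogs, rose by 0.64 ± 0.14 and 0.59 ± 0.14, but was at 0.26 with JK exosomes (adjusted p = 0.0535) and at 0.35 with JINB8 exosomes over the mean of its probesets. As deposited, AKR1C1 read 6.7 in untreated and 5.47 and 5.37 in treated HUVEC, below the array medians, where a low signal cannot be told from background. Median log2 changes of this list were -0.06 and -0.04.

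Of the other antioxidant enzymes 12 of 26 (46.2%, beside 22.4% of all genes) fell with JK and 15 of 26 (57.7%, beside 23.3%) with JINB8 exosomes, while 4 (15.4%) and 5 (19.2%) rose, beside 26.2% and 26% of all genes. Their median log2 change was -0.19 and -0.34, beside 0.02 over all genes. Shares and medians of the lists against untreated HUVEC were computed on the quantile scale and are given for no other scaling. GPX7, a peroxidase of the endoplasmic reticulum, fell, at -1.73 ± 0.13 and -1.77 ± 0.13, and the methionine sulfoxide reductase MSRB2 at -0.78 ± 0.13 and -0.99 ± 0.13. In treated HUVEC GPX7 read 4.67 and 4.59 as deposited, below the array medians. GPX8, also of the endoplasmic reticulum, rose by 0.47 ± 0.09 and 0.36 ± 0.09. The transhydrogenase NNT, which supplies mitochondrial NADPH, rose by 0.45 ± 0.08 with JK exosomes. Under median centring GPX8 was at 0.75 and 0.71 and NNT at 0.72. GPX3, a secreted peroxidase, rose by 0.42 ± 0.16 with JINB8 exosomes (adjusted p = 0.0434), a call that 6 of 15 alternatives ended, among them leaving out JINB8 replicate 1 or 2 or untreated replicate 1 or 3 (adjusted p up to 0.171), and the deposited values turned.

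Among NADPH oxidase subunits, which make superoxide or hydrogen peroxide, 3 of 12 fell with JK exosomes (25%, beside 22.4% of all genes) and 4 of 12 with JINB8 exosomes (33.3%, beside 23.3%), and 0 rose, beside 26.2% and 26%. The shares that fell are near those of all genes. NOX4, the main oxidase of endothelial cells, fell, at -1.35 ± 0.14 and -1.51 ± 0.14. RAC2, a small GTPase that activates other oxidases, fell, at -1.62 ± 0.14 and -1.75 ± 0.14 (limma adjusted p = 4.69e-06 and adjusted p = 2.44e-06). Of the haem and iron genes 4 rose and 5 fell with JK exosomes (22.2% and 27.8%), and 5 rose and 4 fell with JINB8 exosomes (27.8% and 22.2%). These shares are near those of all genes. CPOX, an enzyme of haem synthesis, rose by 0.99 ± 0.10 and 0.95 ± 0.10. The transferrin receptor TFRC rose by 0.49 ± 0.16 and the haem exporter FLVCR1 fell (-0.71 ± 0.09) with JK exosomes. UROD, also of haem synthesis, fell (-0.79 ± 0.12) and the iron exporter SLC40A1 rose by 0.96 ± 0.36 with JINB8 exosomes. Of 15 alternatives 3 ended the TFRC call, among them leaving out JK replicate 3 or untreated replicate 2 (adjusted p up to 0.104). For SLC40A1 8 did, among them leaving out any 1 untreated array or JINB8 replicate 1 or 2 (adjusted p up to 0.166). Under median centring TFRC was at 0.81 and UROD at -0.40. HMOX2, the constitutive haem oxygenase, fell, at -0.55 ± 0.08 and -0.74 ± 0.08, but under median centring at -0.17 with JK exosomes, which did not pass (adjusted p = 0.152), and at -0.28 with JINB8 exosomes, which did (adjusted p = 0.0255). As deposited, the named genes of these lists that rose on the quantile scale read lower than in untreated cells.

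The treated groups were then set against each other, which asks whether exosomes from CD47-deficient cells act otherwise on this pathway. None of the 9 members passed in limma, and none had an unadjusted p under 0.05. Over all genes 0% passed (smallest adjusted p = 0.0644), and 1678 genes (9.11%) had an unadjusted p under 0.05. In every member the JINB8-treated arrays overlapped the JK-treated ones, while 7.68% of all genes had JINB8 arrays all higher and 9.78% all lower. The highest value was that of NFE2L2, 0.20 ± 0.10 (95% interval -0.02 to 0.43, limma adjusted p = 0.595), and the lowest that of KEAP1, -0.11 ± 0.10 (-0.33 to 0.12, adjusted p = 0.795). For HMOX1 the interval ran from -0.39 to 0.23, for GCLC from -0.30 to 0.33 and for SRXN1 from -0.12 to 0.41. The within-array difference of NFE2L2 minus KEAP1, given above, was higher on each JINB8-treated array than on each JK-treated array, by a mean of 0.31. The exact two-sided permutation p was 0.1, the smallest possible here, for a pair chosen after its values were seen. GCLC minus GCLM overlapped between the treated groups. None of the 110 genes measured over the 5 pathway lists passed either, and 12 had an unadjusted p under 0.05.

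**Figure D4:**
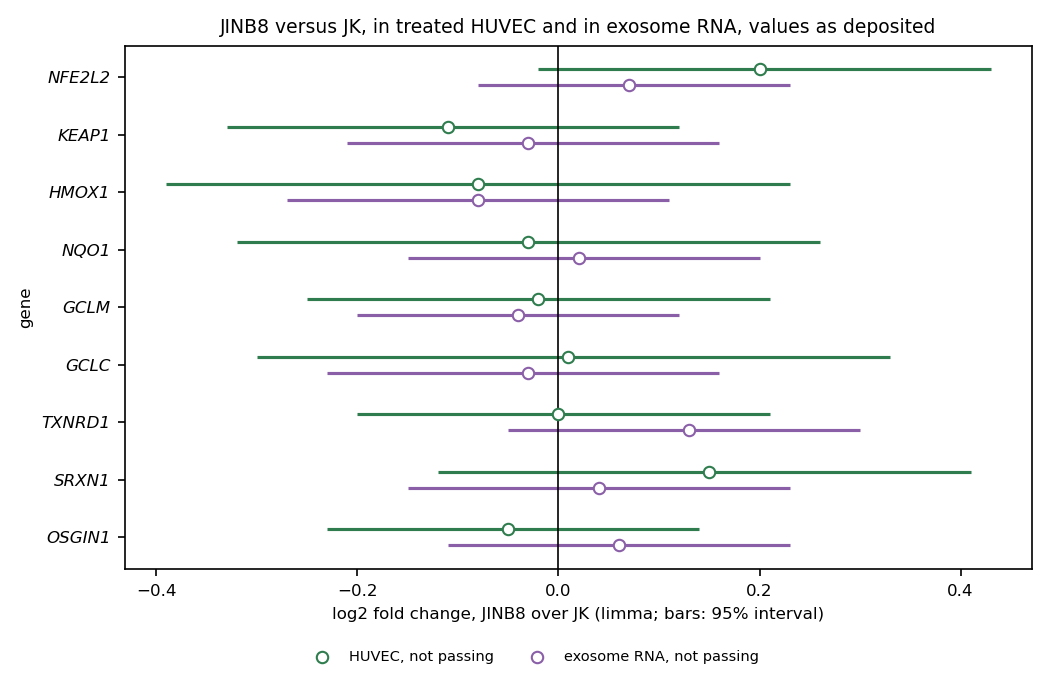
Log2 fold change of JINB8 over JK (horizontal axis) for the 9 genes, in treated HUVEC and in exosome RNA, from deposited values. Points are limma estimates and bars 95% intervals. No gene passes in either, and the points lie between -0.11 and 0.20.

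RNA of the exosomes themselves was compared between the lines. None of the 9 members differed past the threshold and none had an unadjusted p under 0.05, where 0.679% of all genes passed (limma, 0.668% higher and 0.0109% lower in JINB8) and 1484 (8.06%) had an unadjusted p under 0.05. TXNRD1 had the highest value, 0.13 ± 0.08 (95% interval -0.05 to 0.30). NFE2L2 read 3.28, 3.24 and 3.25 in JK and 3.28, 3.34 and 3.36 in JINB8 exosome RNA, a difference of 0.07 ± 0.07. The JINB8 arrays all lay above the JK arrays, by less than the second decimal at the closest, as they did for 7.35% of all genes. For 5.52% they all lay below. From the pathway lists PRDX1, a peroxiredoxin, was higher in JINB8 exosome RNA by 0.57 ± 0.11 (limma adjusted p = 0.0416), RAC2 by 0.49 ± 0.09 (adjusted p = 0.0333) and GPX4, the phospholipid hydroperoxidase, by 0.46 ± 0.08 (adjusted p = 0.0191). With 1 array left out the PRDX1 call held only without JINB8 replicate 2 (adjusted p up to 0.2 otherwise) and the RAC2 call only without JK replicate 1 (up to 0.181). The GPX4 call was lost without JINB8 replicate 2 or 3 and without JK replicate 1 or 3 (up to 0.107). Quantile normalization ended the PRDX1 and RAC2 calls (adjusted p = 0.067 and adjusted p = 0.0607). Median centring ended that of PRDX1 (adjusted p = 0.0595). The JINB8 minus JK difference itself differed between HUVEC and exosome RNA for none of the 9 members (limma, unadjusted p of 0.318 or more), where 0.787% of all genes passed, 0.684% with a negative difference. Over all genes 19 differences were positive and 126 negative, or 36 and 83 with median centring. In the lists it did for GPX4 (-0.61 ± 0.11, adjusted p = 0.0169) and PRDX2 (-0.53 ± 0.11, adjusted p = 0.0383). Of 18 alternatives 13 ended the PRDX2 call, which held with an array left out only without HUVEC JK replicate 3 or JINB8 exosome replicate 1. The GPX4 call ended without HUVEC JINB8 replicate 2, HUVEC JK replicate 1, JINB8 exosome replicate 3 or JK exosome replicate 3 (adjusted p up to 0.0602).

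Most members read far lower in exosome RNA than in endothelial RNA. The 6 exosome arrays were set against the 6 treated HUVEC arrays, whose levels are closer than those of untreated cells. NFE2L2 was lower in exosome RNA, at a log2 fold change of -5.63 ± 0.06 (SE, limma adjusted p = 2.27e-20), NQO1 at -4.80 ± 0.09 and TXNRD1 at -4.24 ± 0.06. KEAP1 was lower, at -3.20 ± 0.06, SRXN1 at -3.06 ± 0.06, GCLC at -2.58 ± 0.08 and GCLM at -2.49 ± 0.06. OSGIN1 was higher by 0.55 ± 0.06 (1.46-fold, adjusted p = 6.62e-08). So 8 members were lower and 1 higher, where 49.7% of all genes were lower and 45.3% higher. The members' median was -3.06, beside -0.13 over all genes.

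The sizes changed with the scaling, and the exosome arrays spread less over genes, as given above. After quantile normalization the log2 fold change was -4.62 for NFE2L2, -2.58 for TXNRD1 and 1.98 for OSGIN1. HMOX1, at -1.37 ± 0.06 as deposited, no longer passed (-0.11, adjusted p = 0.147). Ranked among all genes of its array, NFE2L2 lay at a percentile of 3.24 to 4.85 in exosome RNA and of 91.1 to 96.9 in HUVEC. OSGIN1 lay at a percentile of 90.3 to 92.7 in exosome RNA and of 54.7 to 66.4 in HUVEC. Endothelial markers moved with the members that were lower, 14 of 15 of them lower in exosome RNA and none higher, with a median of -4.56. All 14 T cell markers were higher, but so were 7 of 10 mural cell and fibroblast markers and all 6 platelet and red cell markers. The part of cell of origin, signal spread and background in these differences was not tested.

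Of the wider lists, partners and regulators of NRF2 had 2 genes higher and 18 lower in exosome RNA (10% and 90%), and the other targets 10 and 24 (29.4% and 70.6%), where 45.3% of all genes were higher and 49.7% lower. NFE2L1, a relative of NRF2, was lower, at -5.56 ± 0.06 and SLC7A11 at -6.11 ± 0.06, while GPX2, a peroxidase of gut epithelium, was higher by 1.57 ± 0.08. The other antioxidant enzymes had 2 higher (7.69%), 23 lower (88.5%) and 1 that did not pass, with GPX8 at -5.72 ± 0.07 and SOD3, the extracellular superoxide dismutase, at 1.4 ± 0.06. NADPH oxidase subunits had 9 higher (75%) and 3 lower (25%), with CYBB, the catalytic subunit of phagocytes, at 1.49 ± 0.06 and RAC1 at -4.56 ± 0.06, or -2.51 with quantile normalization. Haem and iron genes had 3 higher (16.7%) and 14 lower (77.8%). As deposited, GPX2 read 5.03 and 4.95 in JK and JINB8 exosome RNA, 3.5 and 3.35 in treated and 5.54 in untreated HUVEC. CYBB read 4.65 in either exosome RNA, 3.11 and 3.2 in treated and 5.24 in untreated HUVEC. Both genes lay below the median of all genes in every group, where a low signal cannot be told from background. SOD3 read 5.79 and 5.92 in JK and JINB8 exosome RNA, 4.45 and 4.47 in treated and 6.46 in untreated HUVEC, as deposited. SOD3 lay below the median of all genes in each HUVEC group and above it in exosome RNA.

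The order of group means was the same for 8 members as deposited: untreated HUVEC highest, treated HUVEC between, exosome RNA lowest. In OSGIN1 exosome RNA came between untreated HUVEC (8.22 ± 0.06, SD, n = 3) and treated HUVEC (6.01 ± 0.06 with JK and 5.96 ± 0.08 with JINB8 exosomes). In each gene the JK and JINB8 values of a sample kind were neighbours in this order and did not differ past the threshold. In exosome RNA HMOX1 read 5.90, 5.91 and 5.63 in JK and 5.75, 5.76 and 5.70 in JINB8. OSGIN1 read 6.55, 6.56 and 6.39 in JK and 6.62, 6.48 and 6.58 in JINB8. The JK and JINB8 arrays overlapped in both genes. Over the 6 exosome arrays KEAP1 lay between 4.03 and 4.26, NQO1 between 4.06 and 4.24 and GCLM between 3.42 and 3.57. GCLC lay between 4.65 and 4.95, TXNRD1 between 5.20 and 5.49 and SRXN1 between 4.13 and 4.45. All of these lay below the lowest treated HUVEC array of the same gene.

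The matches in promoter windows were set beside the changes. Of the 3 members with a match, TXNRD1 rose on the quantile scale and KEAP1 and GCLM did not pass. Of the 5 with windows but no match, NFE2L2, NQO1, SRXN1 and OSGIN1 fell and GCLC rose. Over all genes with a window, 2610 of 14239 held a match. Of those with a match 27% rose and 23.4% fell with JK exosomes, beside 26.6% and 22.5% of all genes with a window, and 27.2% rose and 23.9% fell with JINB8 exosomes, beside 26.4% and 23.4%.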

How the data were processed

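Values were log2 signals of 33297 probesets on 15 arrays, as the authors deposited them. Per the submitters' processing notes they come from Affymetrix Expression Console; the sources used here give no version, background correction or normalization. In GEO's platform annotation 19460 probesets had 1 symbol, 1754 several and 12083 were not listed; the brightest probeset of each gene was kept (18417 genes). Contrasts were fitted with limma 3.58.1 in R 4.3.3 (lmFit, eBayes): treated against untreated HUVEC on values quantile-normalized over 9 arrays, all others on deposited values (9 HUVEC, 6 exosome or 12 treated and exosome arrays). P-values were Benjamini-Hochberg adjusted over all genes, threshold 0.05. Fits were tested on simulated data. Members, lists, normalization and tests were chosen with earlier results of these data known. The text names the members, up to 2 highest and 2 lowest passing genes of each list, and some of the 3 nearest profiles of some members; 1 result is not reported here. The smallest exact p for 3 against 3 arrays is 0.1. Alternatives were other scalings, leaving out the 40% dimmest genes, the mean of probesets, trend and robust fitting, the replicate number as a block, fewer arrays in the fit, and leaving out each array. Same-numbered samples did not deviate together (correlation over 0.1 in 1 of 18 pairs), so numbers were not taken as pairs.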

Additional observations from a re-analysis of the deposited data

How the results depend on the processing

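Leaving out any 1 array kept the 2 rises and 5 falls among the members against untreated HUVEC. Of 135 recomputed member values per comparison, 129 kept direction and side of the threshold with JK and 125 with JINB8 exosomes. As deposited, 18319 and 18286 genes differed and all 9 members were lower (0 higher), with GCLC at -0.80 and -0.78 and TXNRD1 at -1.07 in both. By the alternative's own construction the array-wide shift stays in these values. As deposited with JK exosomes AKR1C1 was at -1.23, BTRC -1.09, CAND1 -1.10, CPOX -0.66, GPX8 -1.04, NNT -1.06, NQO2 -0.90 and TFRC -0.98. With JINB8 exosomes AKR1C1 was at -1.33, BTRC -0.98, CAND1 -1.07, CPOX -0.70, EPHX1 -0.77, GPX3 -1.43, GPX8 -1.13 and SLC40A1 -0.57. Median centring left 2 members lower with JINB8 exosomes, turned KEAP1 to 0.134 and 0.0797, and cyclic loess left 1 member higher; the cause was not tested.

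Between JINB8-treated and JK-treated HUVEC 8 genes passed with median centring, 8 without the dimmest genes and 23 with trend and robust fitting, none of them a member, and 0 to 3 with an array left out (3 without JINB8 replicate 1, 3 without JK replicate 3 and 1 without JK replicate 1). Values near 0 changed sign there: with quantile normalization GCLM to 0.0291, TXNRD1 to -0.0209 and OSGIN1 to 0.0046, with median centring GCLM to 0.0313, NQO1 to 0.0257 and OSGIN1 to 0.0077. Leaving out an array gave NQO1 -0.15 to 0.10, GCLM -0.099 to 0.028, GCLC -0.13 to 0.11 and TXNRD1 -0.042 to 0.089. In exosome RNA 54 to 100 genes passed with an array left out (54 without JK replicate 3, 59 and 77 without JINB8 replicates 3 and 2), and KEAP1 ranged from -0.10 to 0.015, NQO1 -0.021 to 0.076, GCLM -0.069 to 0.0075, GCLC -0.11 to 0.037 and SRXN1 -0.039 to 0.12. Exosome RNA against treated HUVEC gave 10578 genes without the dimmest, by fewer genes tested. For the difference of the JINB8 minus JK contrast 218 genes passed without the dimmest genes, 70 with the replicate block and 57 to 338 with an array left out (338 without HUVEC JK replicate 3). It was 57 and 71 without HUVEC JK replicates 2 and 1, 60 without HUVEC JINB8 replicate 2, 69 without JINB8 exosome replicate 3, and 95 and 65 without JK exosome replicates 1 and 3. There HMOX1 ranged from -0.045 to 0.095, NQO1 -0.18 to 0.077 (0.010 with median centring), GCLM -0.062 to 0.066 and GCLC -0.097 to 0.15. The replicate block changed no member's call, but ended those of GPX3 and SLC40A1 with JINB8 exosomes (adjusted p = 0.0545 and adjusted p = 0.072), PRDX1 and RAC2 in exosome RNA (adjusted p = 0.053 and adjusted p = 0.0501) and PRDX2 in the contrast difference (adjusted p = 0.0724). In exosome RNA 6 members fell among the dimmest genes and GCLM did in the fits with treated HUVEC, so they have no value there. Absent detection calls limit low signals.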

Other observations

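Some genes outside the pathway had profiles close to a member's over the 5 group means, after quantile normalization of all 15 arrays and centring of each gene. NFE2L2, whose means spanned 5.53 log2 units, had as its 3 nearest CEP170 (root mean square difference 0.07), ITGA5 (0.08) and DAB2 (0.09). ITGA5 encodes an integrin subunit and DAB2 an endocytic adaptor. HMOX1, spanning 1.38 units, had PDE3A (0.04), RND1 (0.06) and VCAN (0.07) as its 3 nearest. PDE3A encodes a phosphodiesterase and VCAN the proteoglycan versican. NQO1, spanning 4.48 units, was closest to GNB4 (0.06). OSGIN1, with a span of 2.11, was closest to SSPN (0.01), then GRIK3 (0.02) and POM121L12 (0.03). These are descriptions over 5 means, which share the array levels of their groups.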
